A study of Homo sapiens with 12 samples.

Results

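The genes described here are the WNT ligands, the Frizzled receptors and the secreted antagonists of WNT signalling, with the R-spondin receptors, the ubiquitin ligases that remove Frizzled from the cell surface, AXIN2 and LEF1, together called the WNT module. They were chosen by gene symbol alone: WNT, FZD, SFRP or DKK followed by a number, plus LGR4, LGR5, LGR6, AXIN2, LEF1, RNF43 and ZNRF3. The array platform gave 41 such genes of 19775 genes tested, made up of 17 ligands, 9 Frizzled receptors, 8 antagonists, 3 R-spondin receptors, 2 ubiquitin ligases, AXIN2 and LEF1. Each gene is given by the probe set (a group of short probes read as 1 value) with its highest mean over the 12 arrays, and 24 of the 41 genes had several. WNT3 and FZD8 were carried only by probe sets that name several genes and were left out, and TCF7 and WNT3A were not analysed here.

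WNT proteins are secreted lipid-modified ligands that bind Frizzled receptors together with the co-receptors LRP5 or LRP6. In the canonical branch this stops the destruction of beta-catenin, which then acts with LEF1 and related TCF factors on target genes such as AXIN2, a scaffold that feeds back on the pathway. SFRP proteins bind WNT ligands outside the cell, DKK1 blocks the LRP co-receptors, RNF43 and ZNRF3 send Frizzled for degradation, and R-spondins acting through LGR receptors oppose RNF43 and ZNRF3. In the breast this signalling is known for its part in the maintenance of basal epithelial progenitors.

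Messenger RNA was measured in MCF-10A, an established non-tumorigenic human mammary epithelial cell line, 48 h after infection with a retrovirus. The 4 groups of 3 arrays carried NICD (the free intracellular domain of NOTCH1), Notch1 L1601P+ΔP (the double mutant, a receptor with a change in the domain that holds its subunits together and without the C-terminal region that limits its stability), wild-type full-length Notch1, or the empty vector. All cells were infected, the vector cells included, and the sample descriptions of the NICD group add gfp to the name without saying what it stands for. Beyond the word biological the labels say nothing of how the replicates were made, and the p-values reflect only the spread among these arrays. All levels below are deposited log2 signals, group means are given ± SD (n = 3), and a difference is a log2 fold change ± the standard error of the limma fit. A gene was called when its limma p, adjusted by Benjamini-Hochberg over all 19775 genes of that comparison, was under 0.05. Levels of different probe sets cannot be set against each other.

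The arrays were close within groups, with correlations between replicates of 0.997 to 0.998, and precision is limited by having 3 arrays per group. The NOTCH1 probe set with the larger differences stood at 8.79 ± 0.04 with NICD, 8.74 ± 0.02 with Notch1 L1601P+ΔP, 9.16 ± 0.04 with full-length Notch1 and 6.54 ± 0.20 with vector. It was higher in all 3 groups labelled as carrying a NOTCH1 construct, and the second NOTCH1 probe set was called with NICD, at 9.72 ± 0.10 against 9.44 ± 0.06 with vector (adjusted p over all probe sets, 0.00636), and not in the other 2 groups against vector. Of 16 markers of fibroblasts, endothelium, blood and fat cells, 7 lay under log2 5 in every group. DCN, COL1A1, PECAM1, CLDN5, CD3E, PLIN1, PDGFRB, VWF and COL1A2 did not. Their means over all arrays ran from 5.25 (COL1A2) to 7.75 (COL1A1) and 10.96 (DCN). DCN rose by 0.36 ± 0.05 with NICD. The mean over 6 mammary epithelial markers (KRT5, KRT14, CDH1, EPCAM, EGFR and ITGA6) was 11.61 to 11.70 on the NICD arrays. It was 11.92 to 11.95 with Notch1 L1601P+ΔP, 11.93 to 11.98 with full-length Notch1 and 11.86 to 11.91 with vector. That mean was lower on every NICD array than on any other array, but its members went both ways: with NICD against vector KRT5 and KRT14 rose by 0.58 ± 0.05 and 0.57 ± 0.07, EPCAM, EGFR and ITGA6 fell by 0.74 ± 0.06, 0.72 ± 0.06 and 1.07 ± 0.05, and CDH1 differed by 0.02 ± 0.06. Of 7 luminal markers 1 rose (KRT8, by 0.37 ± 0.08) and 3 fell (FOXA1, GATA3 and KRT18, FOXA1 by 1.09 ± 0.11). The part of these marker changes in the differences below was not tested.

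With NICD, 13 of the 41 WNT module genes were called against vector (31.7%), where 27.6% of all genes were called. FZD4, LGR4, WNT5A, FZD1, FZD7 and LEF1 rose, and SFRP1, DKK1, RNF43, FZD5, FZD3, FZD6 and ZNRF3 fell. These 6 rises and 7 falls compare with 9.54% of all genes higher and 18.1% lower. The arrays of NICD and vector did not overlap for 15 of the 41, where this held for 39.1% of all genes. The median difference over the 41 genes was 0.06, against -0.02 over all genes, so the share called and the median were both near those of all genes. With Notch1 L1601P+ΔP, 7 of 41 genes were called against vector (17.1%), where the share of all genes was 5.12%. FZD4, WNT5A and AXIN2 rose and DKK1, SFRP1, FZD5 and LGR4 fell, where 2.16% of all genes were called higher and 2.95% lower. The arrays did not overlap for 15 of the 41 genes, where this held for 28.5% of all genes, and the median difference was 0.03, against -0.01 over all genes. Full-length Notch1 gave 0 calls among the 41 genes by limma, where 0.0354% of all genes were called. By an unadjusted p under 0.05, 0 of the 41 passed, where 444 of all 19775 genes passed as higher and 609 as lower. All 3 comparisons share the same vector arrays.

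For 4 of the called genes the 250 bases before a start site of transcription are shown: FZD4 as the receptor with the largest rise, LGR4 as the gene called in opposite directions, WNT5A as the called ligand and DKK1 as a called antagonist. The sequences are those of RefSeq on GRCh38.p14, 5′ to 3′ along the gene, and all lie outside the transcript that begins at that start. FZD4 lies on the minus strand at chr11:86955396-86955645, LGR4 on the minus strand at chr11:27472791-27473040, the second listed start of WNT5A on the minus strand at chr3:55481399-55481648, and DKK1 on the plus strand at chr10:52314031-52314280. Capitals mark TGGGAA, the core bound by the Notch partner RBPJ, or CTTTGA, the core bound by TCF and LEF factors, read on either strand. The motifs have no overlap with each other.
FZD4: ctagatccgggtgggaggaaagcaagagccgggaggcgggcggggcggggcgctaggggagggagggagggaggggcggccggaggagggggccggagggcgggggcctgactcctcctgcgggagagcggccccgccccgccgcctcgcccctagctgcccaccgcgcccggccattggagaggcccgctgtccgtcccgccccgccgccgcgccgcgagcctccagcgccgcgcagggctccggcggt
LGR4: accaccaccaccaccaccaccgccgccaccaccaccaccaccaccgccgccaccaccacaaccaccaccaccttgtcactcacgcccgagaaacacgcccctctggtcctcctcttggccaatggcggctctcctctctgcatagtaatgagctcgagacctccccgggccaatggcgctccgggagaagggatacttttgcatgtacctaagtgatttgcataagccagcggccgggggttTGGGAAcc
WNT5A: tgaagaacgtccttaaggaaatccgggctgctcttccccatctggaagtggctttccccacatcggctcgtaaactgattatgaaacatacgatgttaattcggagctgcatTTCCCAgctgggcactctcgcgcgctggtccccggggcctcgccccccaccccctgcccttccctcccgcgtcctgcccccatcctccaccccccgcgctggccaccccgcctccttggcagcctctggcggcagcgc
DKK1: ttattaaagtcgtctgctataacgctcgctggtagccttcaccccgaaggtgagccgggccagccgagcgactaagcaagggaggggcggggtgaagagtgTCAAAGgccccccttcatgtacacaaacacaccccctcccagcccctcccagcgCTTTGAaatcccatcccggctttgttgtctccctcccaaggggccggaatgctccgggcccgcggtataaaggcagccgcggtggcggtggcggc
The FZD4 stretch held neither motif. In LGR4 TGGGAA stood 8 to 3 bases before the start, and in WNT5A its reverse complement stood 138 to 133 bases before it. The first listed start of WNT5A held neither. DKK1 held CTTTGA 95 to 90 bases before the start and its reverse complement 149 to 144 bases before it. Of 35116 promoters of this length in the RefSeq table, 20.8% held TGGGAA on either strand and 11.2% held CTTTGA. Among the 26 WNT module genes with a promoter in that table, 6 held TGGGAA (23.1%) in at least 1 of their promoters and 1 held CTTTGA (3.85%). These are shares of genes, some with several promoters. Counted by promoter, as for the RefSeq table, 6 of their 32 promoters held TGGGAA and 1 held CTTTGA. A match is a description of the letters and not a site of binding.

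Of the 17 ligands, 1 was called with NICD and with Notch1 L1601P+ΔP against vector, and in both it was WNT5A (5.88% of the ligands, below the 27.6% of all genes called with NICD and close to the 5.12% with Notch1 L1601P+ΔP), which signals mainly through noncanonical branches. WNT5A stood at 7.95, 8.07 and 7.94 with NICD, at 7.96, 7.93 and 8.0 with Notch1 L1601P+ΔP, at 7.51, 7.73 and 7.56 with full-length Notch1 and at 7.67, 7.50 and 7.51 with vector. The 6 arrays with NICD or the double mutant all lay above the 6 others. It rose by 0.43 ± 0.07 with NICD (1.35-fold, limma adjusted p = 0.000475) and by 0.40 ± 0.07 with Notch1 L1601P+ΔP (1.32-fold, adjusted p = 0.00508). NICD exceeded Notch1 L1601P+ΔP by 0.03 ± 0.07 (adjusted p = 0.851), a difference smaller than its standard error. A second WNT5A probe set was at 7.21 ± 0.17 with NICD, 7.16 ± 0.09 with the double mutant and 6.76 ± 0.17 with vector. On it the NICD difference of 0.45 ± 0.11 was called, and that of the double mutant, 0.40 ± 0.11, was not (adjusted p over all probe sets, 0.0105 and 0.084).

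The other 16 ligands were called in none of the 6 comparisons among the groups. Against vector their differences ran from -0.27 (WNT10B) to 0.15 (WNT2B) with NICD, from -0.07 (WNT9A) to 0.34 (WNT6) with Notch1 L1601P+ΔP, and from -0.24 (WNT8A) to 0.09 (WNT10B) with full-length Notch1. The smallest adjusted p among them against vector was 0.193 with NICD and 0.216 with Notch1 L1601P+ΔP. WNT10B, a ligand of the canonical branch, averaged 6.46 ± 0.34 with NICD and 6.73 ± 0.06 with vector, so its NICD arrays were spread more widely than the difference itself. WNT6 averaged 6.31 ± 0.08 with Notch1 L1601P+ΔP and 5.97 ± 0.34 with vector. WNT1, WNT2, WNT2B, WNT8A and WNT9B had means under log2 5 over the 12 arrays, where RMA signals are compressed and a change would be understated.

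**Figure D1:**
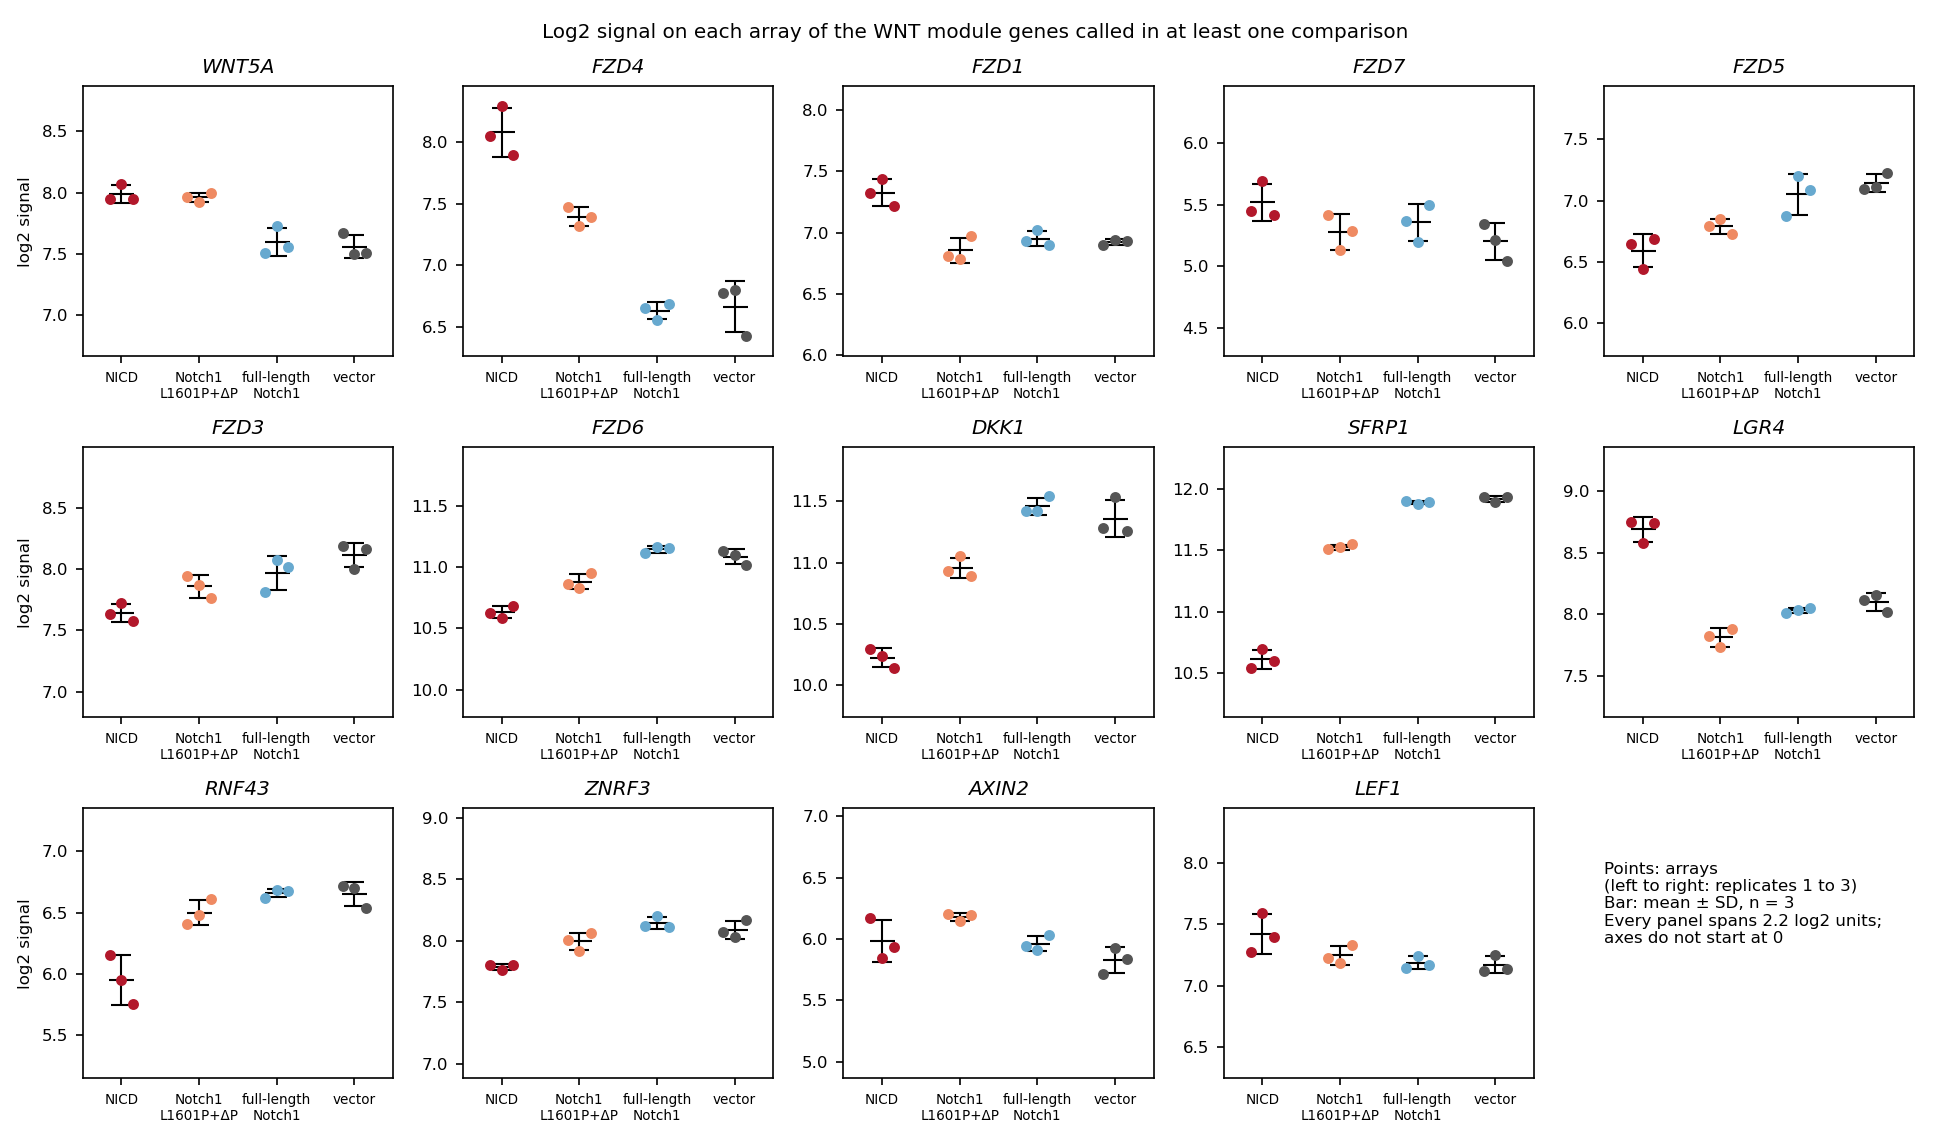
Log2 signal of the called WNT module genes on each of the 12 arrays, in columns for NICD, Notch1 L1601P+ΔP, full-length Notch1 and vector, with points for arrays and bars for the mean ± SD, on axes of equal span that do not start at 0. FZD4 lies at 8.08 with NICD, 7.39 with Notch1 L1601P+ΔP and 6.66 with vector, and SFRP1 at 10.61, 11.53 and 11.92 in the same groups.

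The Frizzled receptors went both ways. With NICD 6 of 9 were called against vector (66.7%), where 27.6% of all genes were called. FZD4, FZD1 and FZD7 were higher and FZD5, FZD3 and FZD6 lower. With Notch1 L1601P+ΔP 2 of 9 were called (22.2%), where 5.12% of all genes were, FZD4 higher and FZD5 lower. FZD4, which also serves as the receptor of the ligand norrin in the retina, showed the largest rise of the module. It stood at 8.05, 8.29 and 7.90 with NICD, at 7.47, 7.32 and 7.39 with Notch1 L1601P+ΔP, at 6.65, 6.55 and 6.69 with full-length Notch1 and at 6.77, 6.79 and 6.42 with vector. The NICD arrays were highest, the Notch1 L1601P+ΔP arrays came next without overlap, and the full-length and vector arrays overlapped. The difference from vector was 1.42 ± 0.11 with NICD (2.67-fold, adjusted p = 6.85e-07) and 0.73 ± 0.11 with Notch1 L1601P+ΔP (1.66-fold, adjusted p = 0.00188), while full-length Notch1 gave -0.03 ± 0.11. With the mean of both FZD4 probe sets the difference with Notch1 L1601P+ΔP was 0.46. NICD exceeded Notch1 L1601P+ΔP by 0.69 ± 0.11 (adjusted p = 0.000669). The dimmer FZD4 probe set was called with NICD, at 5.23 ± 0.10 against 4.62 ± 0.14 with vector, and not with Notch1 L1601P+ΔP, where it stood at 4.80 ± 0.13.

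FZD1, a receptor of the canonical branch, stood at 7.32, 7.44 and 7.22 with NICD, at 6.81, 6.78 and 6.97 with Notch1 L1601P+ΔP, at 6.93, 7.02 and 6.90 with full-length Notch1 and at 6.90, 6.94 and 6.93 with vector. Its NICD arrays lay above all 9 others, which overlapped. It rose by 0.40 ± 0.07 with NICD against vector (adjusted p = 0.000664), while with Notch1 L1601P+ΔP the difference was -0.07 ± 0.07. The other FZD1 probe sets differed by 0.21 ± 0.16 and -0.04 ± 0.07 with NICD and were not called, and with the mean of all FZD1 probe sets the NICD difference was 0.19 (adjusted p = 0.0377). FZD7, at 5.45, 5.69 and 5.42 with NICD and 5.35, 5.22 and 5.04 with vector, was called at 0.32 ± 0.11 (adjusted p = 0.044), and this call was lost in 10 of 14 alternative settings, with an adjusted p of up to 0.171. FZD7 differed by 0.08 ± 0.11 with Notch1 L1601P+ΔP.

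FZD5, FZD3 and FZD6 were lowest with NICD. FZD5 stood at 6.65, 6.44 and 6.69 with NICD, at 6.79, 6.85 and 6.73 with Notch1 L1601P+ΔP, at 6.87, 7.20 and 7.08 with full-length Notch1 and at 7.09, 7.11 and 7.22 with vector. It fell by 0.55 ± 0.09 with NICD against vector (1.46-fold, adjusted p = 0.00041). The second FZD5 probe set differed by -0.05 ± 0.17 and was not called, and with the mean of both the NICD difference was -0.30 (adjusted p = 0.0333). With Notch1 L1601P+ΔP the fall of 0.35 ± 0.09 had an adjusted p of 0.038 that was lost in 10 of 14 settings, with a value of up to 0.727. FZD6, which acts in planar cell polarity, stood at 10.62, 10.59 and 10.69 with NICD, at 10.86, 10.83 and 10.95 with Notch1 L1601P+ΔP, at 11.11, 11.17 and 11.15 with full-length Notch1 and at 11.13, 11.10 and 11.02 with vector. The NICD arrays lay below the double mutant arrays, and these lay below all arrays with full-length Notch1 or vector. The fall against vector was 0.45 ± 0.05 with NICD (adjusted p = 3.56e-05), and the difference with Notch1 L1601P+ΔP, -0.20 ± 0.05, had an adjusted p of 0.0533. FZD3 averaged 7.64 ± 0.07 with NICD, 7.86 ± 0.09 with Notch1 L1601P+ΔP, 7.96 ± 0.14 with full-length Notch1 and 8.12 ± 0.10 with vector. It fell by 0.47 ± 0.08 with NICD (adjusted p = 0.000653). FZD2 was not called in any comparison, at 6.88 ± 0.03 with NICD and 7.02 ± 0.12 with vector, and FZD9 and FZD10 lay under log2 5.

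**Figure D2:**
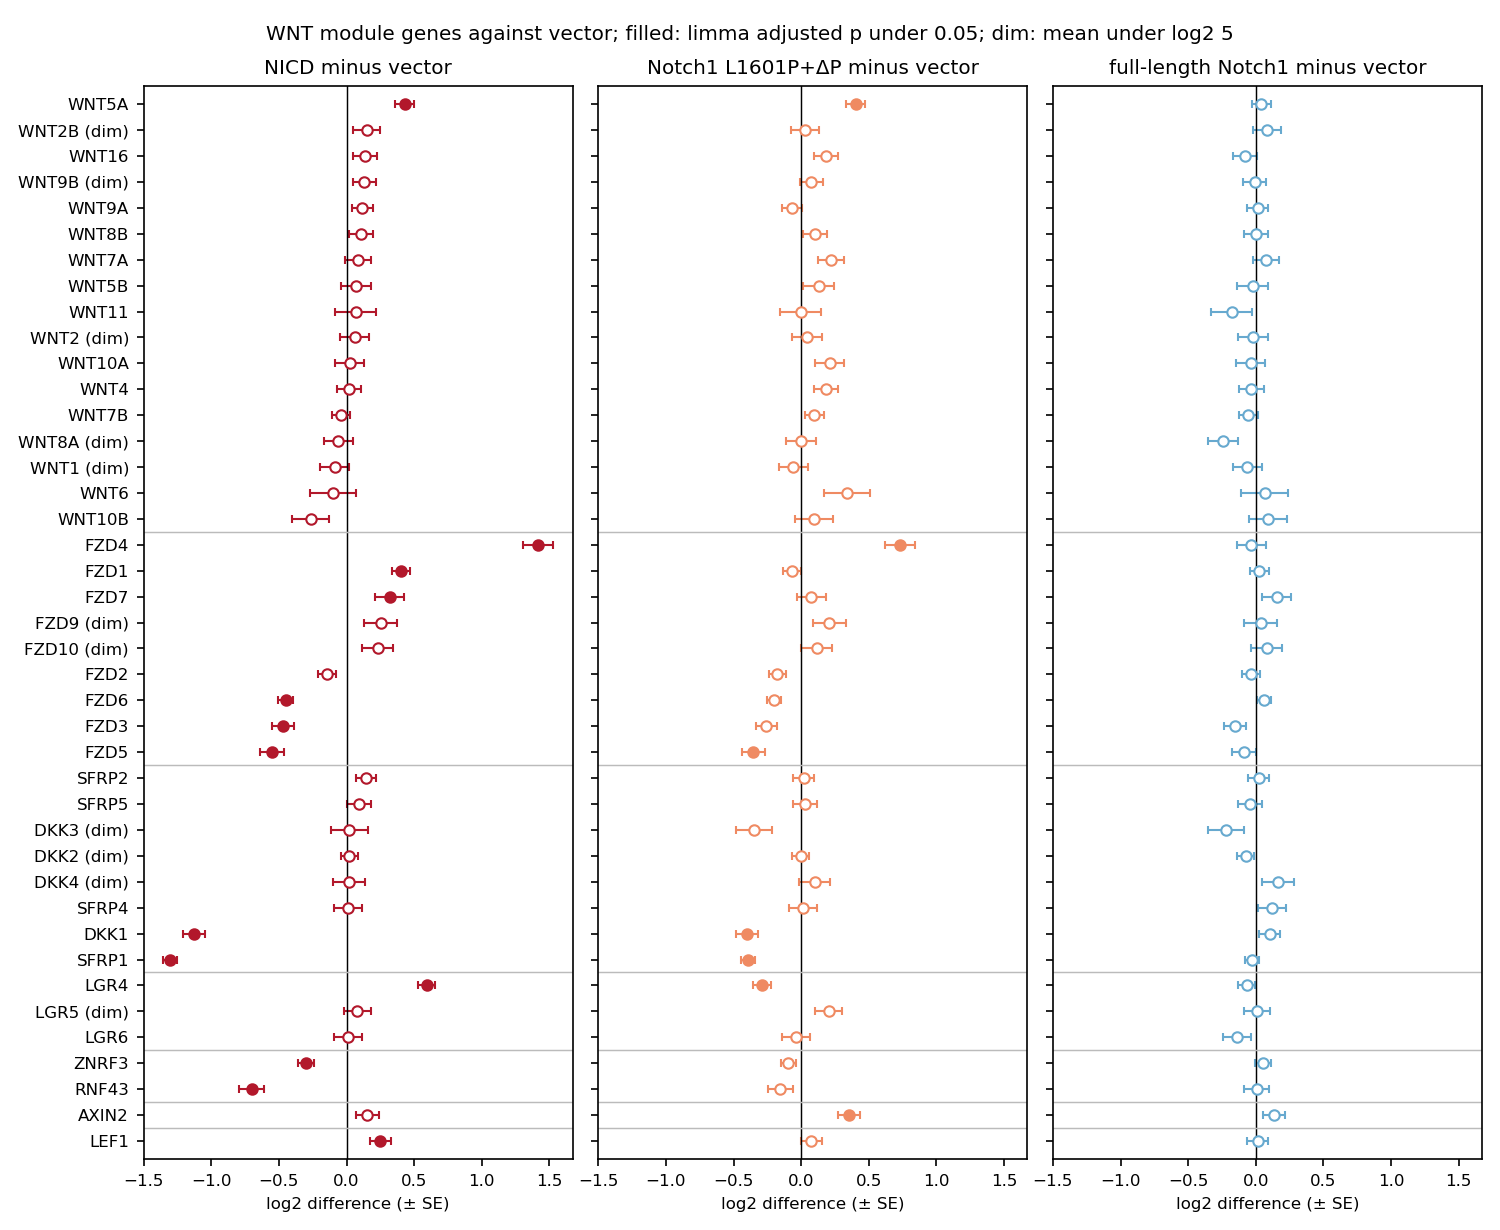
Log2 fold change against vector for the WNT module genes in panels for NICD, Notch1 L1601P+ΔP and full-length Notch1, with bars for the standard error of the limma fit and filled points for an adjusted p under 0.05. NICD has 13 filled points, Notch1 L1601P+ΔP 7 and full-length Notch1 0.

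Of the 8 antagonists 2 were called against vector with NICD and with Notch1 L1601P+ΔP, SFRP1 and DKK1, and both fell. That is 25% of the antagonists, where 27.6% of all genes were called with NICD and 5.12% with Notch1 L1601P+ΔP. SFRP1, which binds WNT ligands in the extracellular space, stood at 10.54, 10.70 and 10.60 with NICD, at 11.51, 11.52 and 11.55 with Notch1 L1601P+ΔP, at 11.90, 11.88 and 11.89 with full-length Notch1 and at 11.94, 11.89 and 11.93 with vector. The NICD arrays were lowest, the double mutant arrays next, and neither overlapped any other group. SFRP1 fell by 1.31 ± 0.05 with NICD (2.47-fold, adjusted p = 7.93e-10) and by 0.39 ± 0.05 with Notch1 L1601P+ΔP (1.31-fold, adjusted p = 0.00056). NICD lay 0.91 below Notch1 L1601P+ΔP (log2 difference -0.91 ± 0.05, adjusted p = 5.16e-08). Among the other SFRP1 probe sets, 2 fell by 1.64 ± 0.12 and 1.58 ± 0.08 with NICD, and the dimmest, at 5.31 ± 0.04 with NICD and 5.19 ± 0.12 with vector, was not called.

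DKK1, the inhibitor that binds the LRP co-receptors, stood at 10.30, 10.24 and 10.14 with NICD, at 10.93, 11.05 and 10.89 with Notch1 L1601P+ΔP, at 11.42, 11.42 and 11.54 with full-length Notch1 and at 11.28, 11.53 and 11.26 with vector. As with SFRP1, the NICD arrays were lowest and the double mutant arrays next, and the full-length and vector arrays overlapped. DKK1 fell by 1.13 ± 0.08 with NICD (2.19-fold, adjusted p = 2.44e-07) and by 0.40 ± 0.08 with Notch1 L1601P+ΔP (1.32-fold, adjusted p = 0.0113). Against Notch1 L1601P+ΔP the NICD difference was -0.73 ± 0.08 (adjusted p = 2.51e-05). SFRP2, SFRP4 and SFRP5, at means of 5.37, 5.08 and 5.50 over the 12 arrays, and DKK2, DKK3 and DKK4, with means under log2 5, were not called in any comparison. Just inside and outside that level, SFRP4 was at 5.08 and LGR5 and WNT2 were at 4.91.

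LGR4, a receptor of R-spondins, was the gene called in opposite directions. It stood at 8.76, 8.58 and 8.75 with NICD, at 7.82, 7.73 and 7.88 with Notch1 L1601P+ΔP, at 8.01, 8.04 and 8.05 with full-length Notch1 and at 8.12, 8.16 and 8.02 with vector. The NICD arrays were above all others and the double mutant arrays below all others. LGR4 rose by 0.59 ± 0.06 with NICD against vector (1.51-fold, adjusted p = 1.48e-05) and fell by 0.29 ± 0.06 with Notch1 L1601P+ΔP (1.22-fold, adjusted p = 0.0221). NICD exceeded Notch1 L1601P+ΔP by 0.88 ± 0.06 (1.84-fold, adjusted p = 6.56e-07). The fall with Notch1 L1601P+ΔP lost its call in 7 of 14 settings, cyclic loess normalization among them, with an adjusted p of up to 0.287. The other LGR4 probe sets differed by 0.16 ± 0.12 and 0.01 ± 0.11 with NICD and were not called, so the call rests on 1 probe set of 3. With the mean of all LGR4 probe sets the NICD difference from vector was 0.25 and that from Notch1 L1601P+ΔP was 0.37. LGR6 stood at 5.65 ± 0.23 with NICD and 5.64 ± 0.05 with vector, and LGR5, a stem cell receptor of the same family, lay under log2 5.

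Both ubiquitin ligases that clear Frizzled from the membrane fell with NICD, where 18.1% of all genes were called lower. RNF43 stood at 6.15, 5.95 and 5.75 with NICD, at 6.41, 6.48 and 6.61 with Notch1 L1601P+ΔP, at 6.62, 6.68 and 6.67 with full-length Notch1 and at 6.72, 6.70 and 6.54 with vector. Its NICD arrays lay below all others. The fall was 0.70 ± 0.09 against vector (1.62-fold, adjusted p = 8.3e-05), and with Notch1 L1601P+ΔP the difference was -0.15 ± 0.09 (adjusted p = 0.366). ZNRF3 averaged 7.79 ± 0.02 with NICD, 7.99 ± 0.07 with Notch1 L1601P+ΔP, 8.14 ± 0.05 with full-length Notch1 and 8.09 ± 0.07 with vector. It fell by 0.30 ± 0.06 with NICD (1.23-fold, adjusted p = 0.00143).

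AXIN2 and LEF1, a target and a nuclear partner of beta-catenin, gave small differences. LEF1 stood at 7.28, 7.59 and 7.39 with NICD, at 7.22, 7.18 and 7.33 with Notch1 L1601P+ΔP, at 7.14, 7.24 and 7.17 with full-length Notch1 and at 7.12, 7.25 and 7.14 with vector. It was called at 0.25 ± 0.08 with NICD (1.19-fold, adjusted p = 0.0312), a call lost in 7 of 14 settings with an adjusted p of up to 0.121. AXIN2 stood at 6.18, 5.84 and 5.93 with NICD, at 6.20, 6.14 and 6.19 with Notch1 L1601P+ΔP, at 5.94, 5.91 and 6.03 with full-length Notch1 and at 5.72, 5.93 and 5.84 with vector. The Notch1 L1601P+ΔP arrays were close together and above the vector arrays, with which the NICD arrays overlapped. AXIN2 was called with Notch1 L1601P+ΔP at 0.35 ± 0.08 (1.28-fold, adjusted p = 0.0282), a call lost in 7 of 14 settings with an adjusted p of up to 0.109, and with NICD the difference was 0.15 ± 0.08 (adjusted p = 0.205).

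**Figure D3:**
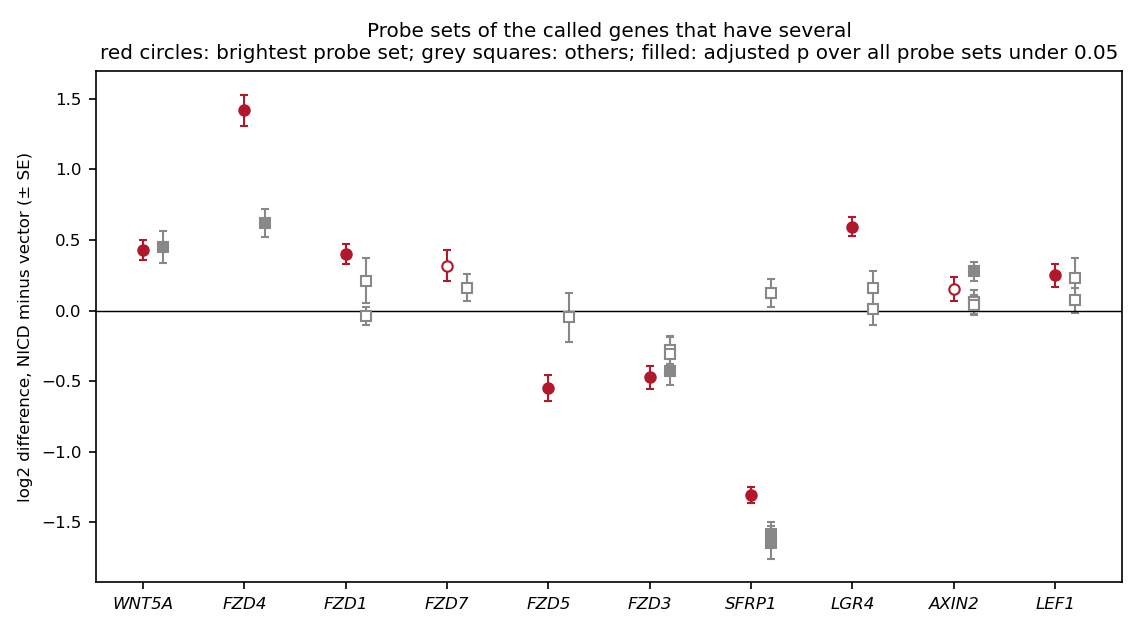
Log2 fold change of NICD against vector for each probe set of the called WNT module genes with several probe sets, with red circles for the brightest probe set, grey squares for the others, bars for the standard error, and filled symbols where the p adjusted over all probe sets was under 0.05. The SFRP1 probe sets at -1.64, -1.58 and -1.31 lie together, and the dimmest, at 0.12, does not.

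Between the Notch1 forms, 8 of 41 genes were called for NICD against Notch1 L1601P+ΔP (19.5%), where 19.8% of all genes were, and 12 for NICD against full-length Notch1 (29.3%), where 27% of all genes were. For Notch1 L1601P+ΔP against full-length Notch1, 5 were called (12.2%), where 3.72% of all genes were. FZD1, FZD4 and LGR4 were higher with NICD than with Notch1 L1601P+ΔP, and DKK1, SFRP1, FZD6, RNF43 and ZNRF3 were lower. Against full-length Notch1, NICD had FZD1, FZD4, LEF1, LGR4 and WNT5A higher and DKK1, FZD3, FZD5, FZD6, RNF43, SFRP1 and ZNRF3 lower. Notch1 L1601P+ΔP had FZD4 and WNT5A higher and DKK1, SFRP1 and FZD6 lower than full-length Notch1. The calls for WNT5A and FZD6 in this last comparison were lost in 2 and 6 of 14 alternative settings, with adjusted p of up to 0.0608 and 0.0862. The ZNRF3 call for NICD against Notch1 L1601P+ΔP was lost in 4 settings (adjusted p of up to 0.0792). Against full-length Notch1, the LEF1 call was lost in 9 (up to 0.145) and the FZD1 call in 1, the mean of all FZD1 probe sets (difference 0.11, adjusted p = 0.218).

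Beyond the 41 genes, 117 of 120 genes in 7 lists of further WNT pathway parts were tested. With NICD 47 of 117 were called against vector (40.2%), 20 higher and 27 lower, where 27.6% of all genes were called, and after cyclic loess normalization the split was 30 higher and 17 lower. Over all genes 9.54% were called higher and 18.1% lower. With Notch1 L1601P+ΔP 7 were called, 4 higher and 3 lower (5.98%, where 5.12% of all genes were). With full-length Notch1 0 were called by limma, and 6 higher and 3 lower passed an unadjusted p under 0.05. Of all 19775 genes, 444 higher and 609 lower passed that unadjusted threshold. Among 10 genes of WNT secretion and processing, 3 rose and 2 fell with NICD, and 1 of those 2 falls kept its call after cyclic loess. SULF2, an enzyme that trims heparan sulfate, averaged 12.35 ± 0.10 with NICD, 10.77 ± 0.04 with Notch1 L1601P+ΔP and 9.83 ± 0.01 with vector. It rose by 2.52 ± 0.06 with NICD and by 0.94 ± 0.06 with the double mutant. GPC4, a surface proteoglycan, rose by 2.25 ± 0.08 with NICD and was not called with the double mutant. WLS, which carries WNT proteins to the cell surface, fell by 0.35 ± 0.06.

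Of 9 co-receptors and alternative receptors, 2 rose and 3 fell with NICD (55.6% called), and 2 of those 3 falls kept their call after cyclic loess. Over all genes 27.6% were called with NICD, 9.54% higher and 18.1% lower. LRP5, a co-receptor of Frizzled, fell by 0.89 ± 0.15 (adjusted p = 0.000471), and ROR1, a receptor of WNT5A, rose by 0.81 ± 0.09. Among 17 R-spondins and further antagonists, 1 rose and 1 fell with NICD (11.8% called), below the 27.6% of all genes. SHISA2, of a family known in Xenopus for holding Frizzled in the endoplasmic reticulum, rose by 2.02 ± 0.10 with NICD. It stood at 6.88 ± 0.13 against 4.86 ± 0.22 with vector, and TRABD2A fell by 0.52 ± 0.08. The vector level of SHISA2 lies under log2 5, where signals are compressed, so its rise may be understated. CTNNB1, which encodes beta-catenin, rose by 0.38 ± 0.05 among 22 genes of the destruction complex and its cytoplasmic partners, of which 2 rose and 7 fell. After cyclic loess 4 of those 7 falls kept their call. The called genes made up 40.9% of this list, where 27.6% of all genes were called. DVL1, which relays the signal from Frizzled, fell by 0.54 ± 0.06 and CSNK1E by 0.46 ± 0.05. CSNK1D fell by 0.34 (limma adjusted p = 0.000576) and GSK3B, a kinase that marks beta-catenin for destruction, by 0.34 ± 0.05.

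Among 17 nuclear partners of beta-catenin and corepressors, 5 rose and 4 fell with NICD (52.9% called), and 2 of those 4 falls kept their call after cyclic loess. The shares over all genes with NICD were 27.6% called, 9.54% higher and 18.1% lower. SOX9 rose by 1.38 ± 0.06 with NICD and 0.63 ± 0.06 with Notch1 L1601P+ΔP. With NICD HBP1 rose by 0.36 (limma adjusted p = 0.000674) and TCF7L2 by 0.33 ± 0.06, and TLE5, a member of the corepressor family, fell by 0.47 ± 0.06. Among 19 target and feedback genes 5 rose and 2 fell (36.8% called). CCND1, which encodes cyclin D1, rose by 0.94 ± 0.07 with NICD and by 0.39 ± 0.07 with Notch1 L1601P+ΔP, MSX2 rose by 0.66 ± 0.08 with NICD, and MYC fell by 0.38 ± 0.05, so these target genes went both ways. Of 23 genes of planar cell polarity and the noncanonical branch, 2 rose and 8 fell with NICD (43.5% called). After cyclic loess 5 of those 8 falls kept their call. DAAM1, a formin that acts below Dishevelled, fell by 1.12 ± 0.07 with NICD and 0.47 ± 0.07 with Notch1 L1601P+ΔP. PRICKLE1, a planar polarity protein, fell by 1.08 ± 0.07 with NICD and 0.34 ± 0.07 with Notch1 L1601P+ΔP, while their relatives DAAM2 and PRICKLE2 rose by 0.74 ± 0.08 and 0.72 ± 0.08 with NICD.

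**Figure D4:**
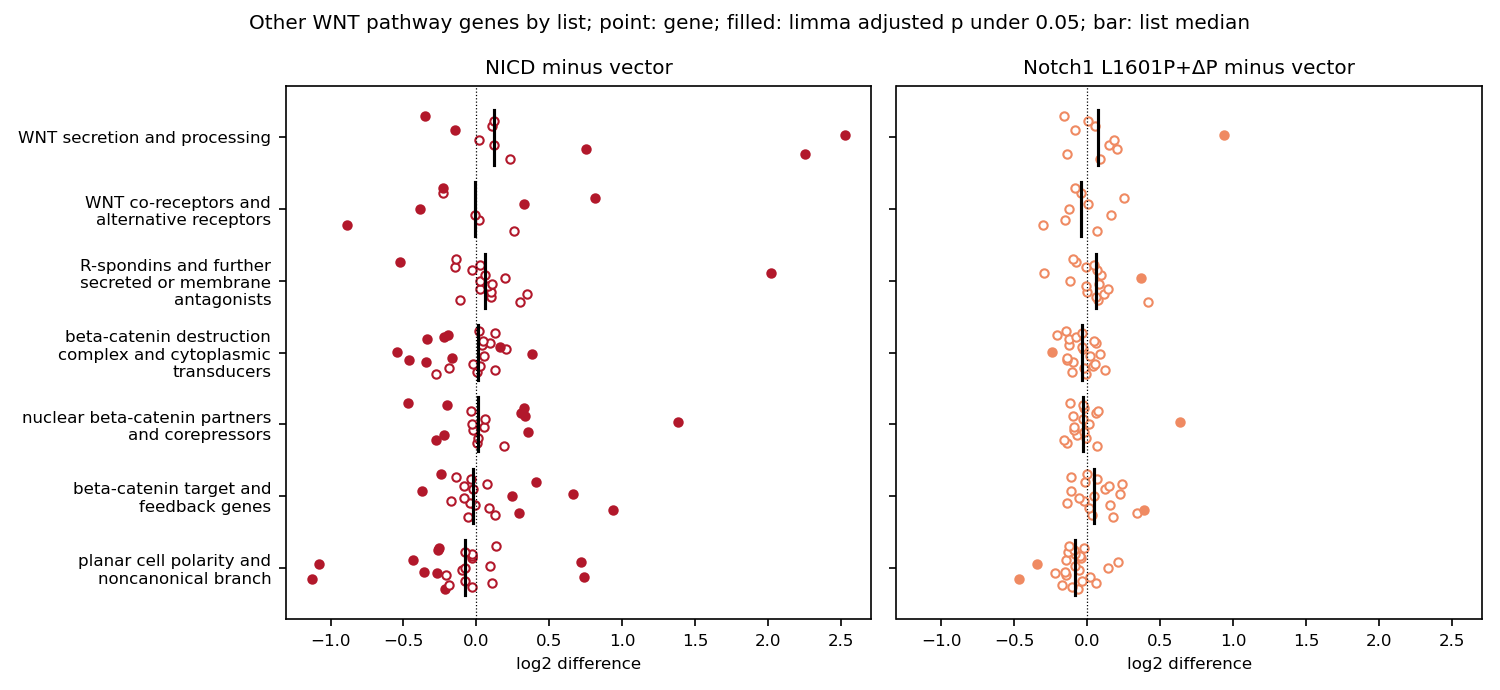
Log2 fold change against vector for genes of the 7 further WNT pathway lists, with panels for NICD and Notch1 L1601P+ΔP filled points for an adjusted p under 0.05 and a bar at each list's median. SULF2 (2.52), GPC4 (2.25) and SHISA2 (2.02) lie highest with NICD, SHISA2 against a vector level under log2 5, and DAAM1 (-1.12) and PRICKLE1 (-1.08) lowest.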

How the data were processed

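Per the submitters' processing notes, RMA and limma were used, in versions not given in the sources used here. Values analysed are the authors' deposited log2 signals of 54675 probe sets on 12 arrays. RMA includes quantile normalization, which hides any change shared by most genes, and dim signals are compressed. Of the probe sets, 41091 carry 1 gene symbol in the platform annotation, 1801 several and 11721 none, and 62 are Affymetrix controls; those with 1 symbol gave 19775 genes. All 41 WNT module genes matched RefSeq. Their probe sets numbered 84, and 6 further probe sets with several symbols were left out.

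All 12 arrays entered 1 fit with group means in limma 3.58.1 (R 4.3.3), with 8 residual degrees of freedom and 4.09 added by moderation. The 6 pairwise comparisons were two-sided. Genes called in any comparison were given with values; from each further list at most 4 called genes per direction could be named, largest change first. The WNT module genes, the lists and the naming rule were chosen with earlier results of these data known. The fit was tested on simulated data. Alternatives covered cyclic loess, a filter at log2 5, the probe set chosen, the groups in the fit, variance moderation, array weights, a replicate block and leaving out each array.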

Additional observations from a re-analysis of the deposited data

Results flagged for a closer look

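LGR4 stood out because its brightest probe set was called higher with NICD and lower with Notch1 L1601P+ΔP, both against vector. The rule also required a call between these 2 forms. NICD minus Notch1 L1601P+ΔP was 0.88 on the log2 scale (limma adjusted p = 6.56e-07). As this call was a condition of the choice, it adds no separate support. On these same arrays, LGR4 lay above vector on 3 of 3 NICD arrays and below it on 3 of 3 Notch1 L1601P+ΔP arrays. The fall lost its call in 7 of 14 alternative settings (adjusted p of up to 0.287), the mean of all 3 LGR4 probe sets gave a difference of 0.37 between these forms, and the other LGR4 probe sets were not called with NICD.

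In 3 genes a dimmer probe set, not used above, was called with NICD against vector where the brightest one was not. For AXIN2 that probe set differed by 0.28 ± 0.07, at 4.13 ± 0.02 with NICD and 3.86 ± 0.06 with vector. For DKK2 it differed by 0.50 ± 0.11, at 3.28 ± 0.20 with NICD and 2.79 ± 0.12 with vector. For WNT2B it differed by -0.34 ± 0.09, at 3.92 ± 0.03 with NICD and 4.26 ± 0.06 with vector. All 3 lie under log2 5.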

How the results depend on the processing

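No called difference of a WNT module gene changed direction in any alternative, and of 45 called differences 35 kept their call in every one; of 201 uncalled ones, 21 gained a call in at least 1. Leaving out 1 array gave 11 to 13 called genes for NICD against vector, 4 to 6 for Notch1 L1601P+ΔP against vector (4 without Notch1 L1601P+ΔP replicate 1 or 2 or vector replicate 1), 7 to 9 for NICD against Notch1 L1601P+ΔP, 11 to 13 for NICD against full-length Notch1, and 3 to 5 for Notch1 L1601P+ΔP against full-length Notch1 (3 without full-length replicate 3). Full-length Notch1 against vector stayed at 0 in all of them. In the further pathway lists, Notch1 L1601P+ΔP against vector gave 11 calls with trended robust moderation, 11 with array weights and 4 to 6 without 1 array (4 without Notch1 L1601P+ΔP replicate 2 or vector replicate 3), against 7; against full-length Notch1 it gave 7 with trended robust moderation and 8 with array weights, against 4. The cause was not tested. Over all genes, Notch1 L1601P+ΔP against vector gave 1012 calls in the fit reported, 1616 with trended robust moderation, 1638 with array weights and 566 without Notch1 L1601P+ΔP replicate 2. Notch1 L1601P+ΔP against full-length Notch1 gave 735 calls over all genes in the fit reported, 1256 with trended robust moderation and 1371 with array weights. Cyclic loess moved the share of higher calls over all genes to 52.2%, against 34.6%, for NICD against vector, and to 59.4%, against 42.3%, for Notch1 L1601P+ΔP against vector. The labels do not say whether replicate numbers pair the samples. Same-numbered samples of different groups correlated at -0.11 to 0.16 in their deviations from the group means (18 pairs). Differently numbered ones correlated at -0.11 to 0.14 (36 pairs). With 3 arrays per group these correlations cannot settle whether samples were paired. With the replicate block the called genes numbered 12, 5, 0, 9, 12 and 5 in the order NICD, Notch1 L1601P+ΔP and full-length Notch1 against vector, NICD against Notch1 L1601P+ΔP, NICD against full-length Notch1 and Notch1 L1601P+ΔP against full-length Notch1, and the list genes 44, 5, 0, 32, 40 and 4. Signals under log2 5 limit what can be seen of the 11 dim genes.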
